A study of Mus musculus with 2 samples.

Results

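The genes described here are 8 chemokine ligands, Ccl22, Ccl17, Ccl3, Ccl4, Ccl5, Cxcl10, Cxcl16 and Cx3cl1, in CH12.LX, a mouse line grown from a B cell lymphoma. They were chosen by symbol, with their levels already known, and all 8 were found among the 43346 entries of the gene tables that carry an Ensembl identifier. The study sequenced polyadenylated RNA of this line, single end, in 2 libraries from separate biosamples of 1 donor animal record, strain B10.H-2aH-4bp/Wts, with no treatment named and the age unknown. Both libraries form 1 group, so levels and the difference between the libraries can be described, and no condition can be compared. The labels call them biological replicates and do not say whether they were separate cultures, so differences between them may be technical.

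Chemokines are small secreted proteins that draw leukocytes along a gradient by binding G protein-coupled receptors. Their families are named for the spacing of the first cysteines of the mature protein, which are adjacent in CC chemokines, 1 residue apart in CXC chemokines and 3 residues apart in the CX3C chemokine. Activated B cells are known to make the CC chemokines Ccl22 and Ccl17, which draw T cells through Ccr4, and Ccl3 and Ccl4, which draw T cells and myeloid cells to sites of inflammation. Cxcl10 is an interferon-induced ligand of Cxcr3, and Cxcl16 and Cx3cl1 are made as membrane-anchored proteins that proteases can shed.

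The families can be read in the coding sequence of each ligand. The stretches below come from the leading transcript of each gene in the GENCODE M21 reference, run 5′ to 3′ on the coding strand, and carry the first cysteine codons of the family motif in capitals.
Ccl22: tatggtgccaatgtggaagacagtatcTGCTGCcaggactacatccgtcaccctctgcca
Ccl17: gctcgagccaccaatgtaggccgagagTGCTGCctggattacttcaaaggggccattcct
Ccl3: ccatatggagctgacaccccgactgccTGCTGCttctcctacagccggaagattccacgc
Ccl4: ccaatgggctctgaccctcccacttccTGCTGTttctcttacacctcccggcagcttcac
Ccl5: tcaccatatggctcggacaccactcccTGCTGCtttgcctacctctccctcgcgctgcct
Cxcl10: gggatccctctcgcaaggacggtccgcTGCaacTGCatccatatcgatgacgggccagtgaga
Cxcl16: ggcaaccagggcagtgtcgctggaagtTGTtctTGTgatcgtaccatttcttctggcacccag
Cx3cl1: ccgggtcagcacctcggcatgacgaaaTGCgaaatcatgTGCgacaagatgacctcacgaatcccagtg
The pair of cysteine codons is adjacent in the 5 CC ligands, parted by 1 codon in Cxcl10 and Cxcl16 and by 3 codons in Cx3cl1. On GRCm38, the assembly of mm10, the Ccl22 stretch lies in exon 2 at chr8:94746907-94746966 and the Cxcl16 stretch in exon 2 at chr11:70459100-70459162. The others cross the intron between exons 1 and 2, at chr8:94810571-94811244 for Ccl17, chr11:83648625-83649205 for Ccl3, chr11:83662735-83663514 for Ccl4, chr11:83529215-83530392 for Ccl5, chr5:92348154-92348754 for Cxcl10 and chr8:94772331-94778092 for Cx3cl1.

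These sequences also bear on how well the reads tell the ligands apart. The closest coding sequences were those of Ccl3 and Ccl4, with 68.1% identical positions in a global alignment, followed by Ccl3 and Ccl5 with 61.6%. Ccl22 and Ccl17 shared 50.8%. The leading transcripts of Ccl3 and Ccl4 had no identical run longer than 9 bases. Among words of 41 bases, the fragment length implied by the lengths and effective lengths in the tables, 0% of those in Ccl22, Ccl17, Ccl3, Ccl4, Ccl5 and Cx3cl1 occurred in an annotated transcript of another gene. Cxcl10 shared 5.8% of its words with Art3 and Cxcl16 17.6% with Zmynd15, genes on the opposite strand whose exons overlap theirs. Whether the counting used strand is not given in the sources used here, so it is not known whether reads from those overlaps were assigned by strand. The posterior standard deviation of the count, the authors' measure of uncertain read assignment, was at most 1.01% of the count for Cxcl10 and 1.15% for Cxcl16, and 0% for the other 6 ligands.

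The libraries held 22996547 and 25715408 expected counts, which are estimated reads per gene. All 8 B cell markers were detected, a term used here for 1 TPM or more in both libraries, where TPM is a transcript level corrected for gene length and scaled to the same total in every library. They ranged from Pax5 at 27.5 and 36.3 TPM in replicates 1 and 2 to Cd79b, a chain of the B cell receptor, at 525 and 545. The label gives the sex as female, but the Y-linked gene Ddx3y stood at 29.1 and 25.4 TPM and Xist, which marks a silenced X chromosome, had 1 and 0 counts. The mitochondrial share of the counts was 2.02% for replicate 1 and 3.04% for replicate 2.

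Ccl22 was the one ligand of very high level, and the other 7 stood far below it. Ccl22 had 110840 and 132473 expected counts in replicates 1 and 2, or 3112 and 3345 TPM, a mean of 3228 ± 164 TPM (SD, n = 2). Both libraries held it at a similar level, and each of the other 7 lay below 20 TPM in both. Of all counts of named genes, 0.482% in replicate 1 belonged to Ccl22 (95% interval after Wilson, 0.479% to 0.485%), and 0.515% did in replicate 2 (0.513% to 0.518%). The labels name no molecular identifiers, so reads may be copies of 1 molecule, and all intervals given for a single library describe counting error alone.

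Ccl4 and Ccl3, the inflammatory CC chemokines known as MIP-1 beta and MIP-1 alpha, followed at a moderate level. Ccl4 had 190 and 217 counts, or 18.7 and 19.2 TPM (mean 19.0 ± 0.361, SD, n = 2). Ccl3 had 144 and 179 counts, or 12.1 and 13.5 TPM (mean 12.8 ± 1.01). Ccl4 was higher than Ccl3 in both libraries, by 1.54-fold (95% counting interval 1.24 to 1.93) and 1.42-fold (1.16 to 1.74). Ccl5, the T cell and inflammatory chemokine known as RANTES, was close to the limit of detection, with 12 and 9 counts. Its level was 1.49 TPM in replicate 1 (95% Poisson interval 0.77 to 2.60) and 0.94 TPM in replicate 2 (0.43 to 1.78).

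Ccl17, the other Ccr4 ligand, was near the limit as well. It had 15 and 8 counts, or 1.94 TPM (1.09 to 3.20) and 0.93 TPM (0.40 to 1.83), so the libraries fell on either side of 1 TPM with overlapping intervals. Cxcl10 had 68 and 70.7 counts, or 3.94 and 3.79 TPM (mean 3.87 ± 0.106, SD, n = 2). The membrane-anchored Cx3cl1, known as fractalkine, had 153 and 137 counts, or 3.10 and 2.54 TPM (mean 2.82 ± 0.396). The other membrane-anchored ligand, Cxcl16, had 19 and 20 counts, or 0.46 and 0.41 TPM, the lowest of the 8 in both libraries.

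In all, 5 of the 8 were detected and Ccl17, Ccl5 and Cxcl16 were not. All 8 had counts in both libraries, and the 3 missed ones had at least 8. Among the 21474 protein-coding genes, 48.0% were detected and the median level was 0.768 TPM, against a median of 3.34 TPM over the 8 ligands.

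**Figure D1:**
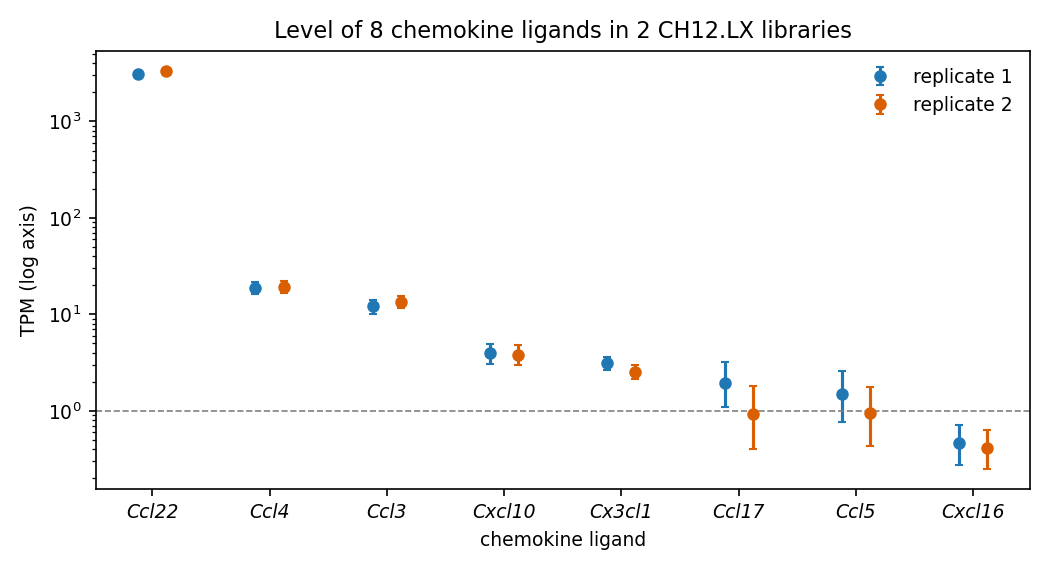
TPM of the 8 ligands (log axis), ordered by the mean of both libraries, with 1 point per library and bars for the 95% Poisson interval of the count; the dashed line marks 1 TPM. Ccl22 stands at 3112 and 3345 TPM and the next ligand, Ccl4, at 18.7 and 19.2, while the intervals of Ccl17 and Ccl5 overlap.

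By mean TPM the order was Ccl22, Ccl4, Ccl3, Cxcl10, Cx3cl1, Ccl17, Ccl5 and Cxcl16. The ranges of the libraries overlapped for 1 pair of neighbours, Ccl17 and Ccl5, whose order turned between the libraries (a ratio of 1.30 in replicate 1 and 0.989 in replicate 2). Cxcl10 and Cx3cl1 did not overlap across the libraries, but their counting intervals did within each. The intervals of Cx3cl1 and Ccl17 overlapped in replicate 1, and those of Ccl5 and Cxcl16 in replicate 2. The steps from Ccl22 to Ccl4, from Ccl4 to Ccl3 and from Ccl3 to Cxcl10 exceeded both kinds of spread. Since the ligands were chosen with their levels known, the order is a description and was not tested.

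Among protein-coding genes, Ccl22 ranked 20th in replicate 1, 15th in replicate 2 and 15th by the mean, above 99.93% of them. The genes directly above it by the mean were Hsp90ab1, a cytosolic chaperone, at 3766.1 ± 279.6 TPM (SD, n = 2) and the ribosomal protein gene Rplp0 at 3371.2 ± 94.45. Directly below were the ribosomal protein genes Rpl4 at 3225.7 ± 1.17 and Rpl23 at 3159.5 ± 957. The mean of Ccl22 differed from those of Rplp0, Rpl4 and Rpl23 by less than the SD of at least 1 gene of each pair, so its place among them is not fixed by 2 libraries. Ccl4 ranked 5464 by the mean, Ccl3 6512, Cxcl10 8939, Cx3cl1 9400, Ccl17 10121, Ccl5 10294 and Cxcl16 11289. The lowest of these, Cxcl16, was thus below the median protein-coding gene, with 47.4% of the genes lower.

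**Figure D2:**
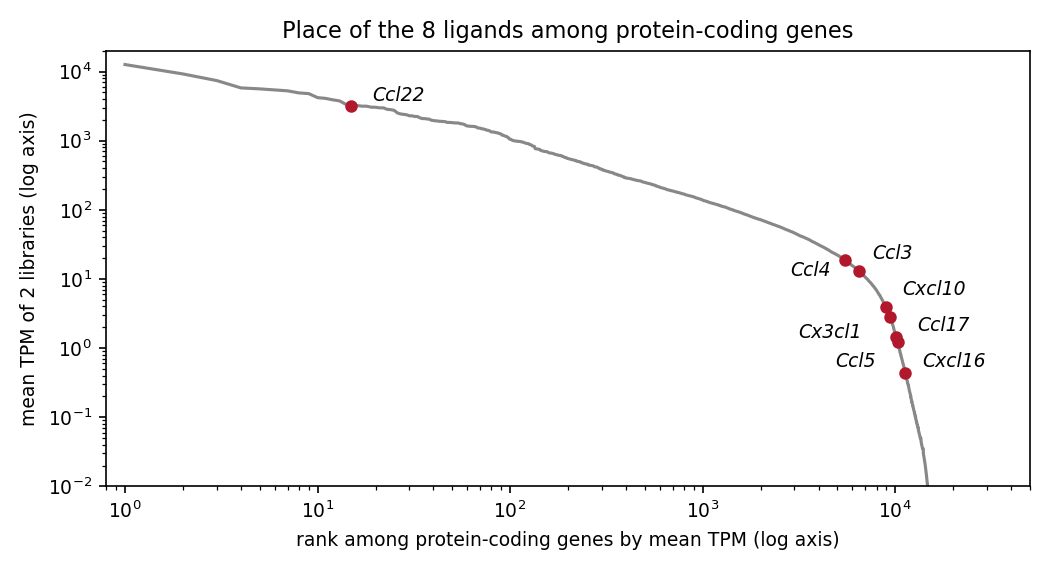
Mean TPM of 2 libraries against rank for protein-coding genes (both axes log), with the 8 ligands as points on the curve. Ccl22 sits at rank 15 among ribosomal protein and chaperone genes, and the other 7 lie between ranks 5464 and 11289.

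The ligands lie partly in clusters, and the highest and one of the lowest share one. Ccl22 (chr8:94745590-94751699), Cx3cl1 (chr8:94772009-94782427) and Ccl17 (chr8:94810453-94812036) are all on the plus strand within 66.5 kb, and no other measured entry lies between them. Ccl22 exceeded Cx3cl1, which lies 20.3 kb beyond it, by 1004-fold in TPM in replicate 1 (95% counting interval 856.7 to 1184) and 1317-fold in replicate 2 (1114 to 1569). It exceeded Ccl17 by 1604-fold (972.5 to 2866) and 3596-fold (1825 to 8330). The flanking genes were Pllp, which encodes a myelin-associated membrane protein, at 2.34 and 3.12 TPM, before Ccl22, and Ciapin1, an iron-sulfur cluster assembly gene, at 201 and 141 TPM beyond Ccl17. Ccl22 thus stood between genes of low level, Pllp and Cx3cl1.

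Ccl5 (chr11:83525778-83530518), Ccl3 (chr11:83647844-83649355) and Ccl4 (chr11:83662584-83664683) lie within 138.9 kb. Ccl3 and Ccl4, the moderate pair, are 13.2 kb apart on opposite strands, and Ccl5 is separated from Ccl3 by 117 kb. Between Ccl5 and Ccl3 lay the myeloid chemokine genes Ccl9 at 0.49 and 0.59 TPM and Ccl6 at 1.0 and 0.67 TPM, the noncoding E230016K23Rik with 0 counts, and Rpl9-ps1 at 0.27 and 0 TPM, whose read assignment is uncertain. The flanking Heatr9 had 0 and 1 counts and Wfdc17 had 0 in both libraries. Ccl3 and Ccl4 were thus the highest genes of this interval in both libraries.

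Cxcl10 (chr5:92346638-92348889) and Cxcl16 (chr11:70453983-70459984) lie apart from other members. Cxcl10 has its relative Cxcl9 as a neighbour, which had 1 and 0 counts, and lies within the span of Art3 at 0.18 and 0.07 TPM. On its other side lies its relative Cxcl11, annotated as a polymorphic pseudogene, with 0 counts in both libraries. The nearest protein-coding gene on that side was Nup54, a nuclear pore gene, at 48.9 and 49.7 TPM. Cxcl16 overlaps Zmynd15 at 0.56 and 0.15 TPM, and lies between the Mediator subunit gene Med11 at 70.9 and 54.6 TPM and Tm4sf5 at 25.2 and 17.9 TPM.

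**Figure D3:**
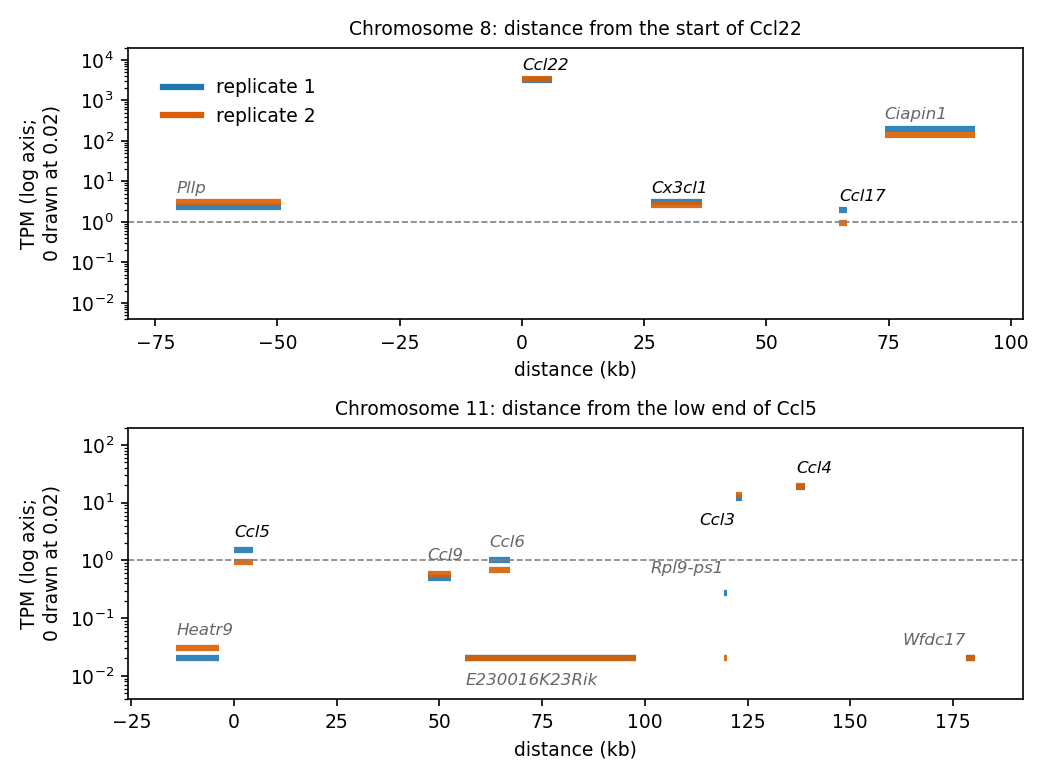
TPM (log axis, 0 drawn at 0.02) of every measured entry in the chromosome 8 and chromosome 11 clusters and of the flanking protein-coding genes, against distance in kb; bars span the genes and colours mark the libraries. Ccl22 stands at 3112 and 3345 TPM beside Cx3cl1 at 3.10 and 2.54, and Ccl3 and Ccl4 rise above Ccl5, Ccl9 and Ccl6.

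The start-site sequences of the ligands were taken from RefSeq on GRCm38.p6, which matched 5 of the 8, Ccl22, Ccl17, Ccl3, Cxcl10 and Cx3cl1. Those of Ccl22 and Ccl17 are shown because the genes share a cluster and, among the 5 matched, differ most in level. That of Cxcl10 is shown because it holds several matches to a kB-type motif. The motif searched was GGG and CC with any 5 bases between them, on both strands, a loose form of the sites that NF-kB binds, and capitals mark its matches. Bases from the first annotated start of the gene onward are left out.
Ccl22: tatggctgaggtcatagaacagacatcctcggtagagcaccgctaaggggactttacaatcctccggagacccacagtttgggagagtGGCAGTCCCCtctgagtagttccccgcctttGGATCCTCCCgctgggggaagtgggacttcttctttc
Ccl17: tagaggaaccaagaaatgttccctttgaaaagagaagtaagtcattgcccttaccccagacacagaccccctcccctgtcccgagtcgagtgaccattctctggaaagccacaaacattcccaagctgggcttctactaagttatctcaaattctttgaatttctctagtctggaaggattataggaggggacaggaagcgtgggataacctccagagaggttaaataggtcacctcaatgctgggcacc
Cxcl10: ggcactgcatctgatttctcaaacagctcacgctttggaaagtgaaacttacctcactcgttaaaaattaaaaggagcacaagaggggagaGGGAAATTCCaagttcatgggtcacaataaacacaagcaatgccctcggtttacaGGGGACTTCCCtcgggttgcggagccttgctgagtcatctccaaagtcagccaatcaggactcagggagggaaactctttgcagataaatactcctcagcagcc
These run 5′ to 3′ in the direction of transcription, at chr8:94745434-94745589 and chr8:94810203-94810452 on the plus strand and chr5:92348890-92349139 on the minus strand. GENCODE places the start of Ccl22 94 bases before that of RefSeq, so 156 bases remain.

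Within the 250 bases before the RefSeq start, the kB-type motif matched in Ccl22 and Cxcl10 and in none of the other 3 windows. The motif occurred in 45.8% of 32851 promoter windows of that length, so a match is common. Ccl22 had 2 matches, both to the reverse complement, and in Cxcl10 the matches that begin 104 and 103 bases before the start overlap. Also searched, on both strands, were TTC and GAA with 4 bases between them (STAT6-type) or 3 (GAS-type), GAAA and GAAA with 2 bases between them (ISRE-type), and TATAAA. Ccl17 held both the STAT6-type motif, found in 5.85% of windows, and the GAS-type motif, found in 7.02%. Cxcl10 held the ISRE-type motif, found in 2.98%, and Cx3cl1 held TATAAA, found in 12.4%. The TATAAA of Cx3cl1 lies 6 to 1 bases before the RefSeq start. GENCODE places the start of Cx3cl1 171 bases before that of RefSeq, so this match lies within the transcript GENCODE annotates. These are matches of letters, and no binding was measured here.

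Each of the 8 ligands was read mainly from 1 protein-coding transcript. The tables hold 17 transcripts of the 8 genes, and Ccl17, Ccl3 and Ccl4 have 1 each. Ccl22-201, of 2216 bases, took 99.89% of the Ccl22 level in replicate 1 and 99.92% in replicate 2, with 110819.5 and 132454.8 expected counts. The noncoding Ccl22-202, of 409 bases, took the remaining 0.11% and 0.08%. That small share still came to 3.39 and 2.71 TPM, from only 20.5 and 18.2 counts on a short transcript. The whole Cx3cl1 gene stood at a similar TPM from 153 and 137 counts.

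For the low ligands the shares rest on few reads. Cx3cl1-201 took 90.2% and 88.2% of the Cx3cl1 level with 149.91 and 133.42 counts, and the noncoding Cx3cl1-204 took 9.85% and 7.91% from 3.09 and 2.26 counts. Cxcl10-201 took 100% and 92.8%, and Cxcl16-201 took 87.9% and 100%. With the posterior mean estimate the mean share of the leading transcript fell from 89.2% to 79.1% for Cx3cl1, from 96.4% to 85.0% for Cxcl10 and from 93.9% to 67.0% for Cxcl16. Ccl5-201 took 100% of 12 counts in replicate 1 but 73.9% in replicate 2, where the retained-intron transcript Ccl5-202 was given 2.8 counts.

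The difference between the 2 libraries was tested over all 15340 genes with at least 10 counts, with a two-sided exact binomial test that compares these libraries and not conditions. Of all genes, 30.6% differed after Benjamini-Hochberg adjustment, 14.6% higher and 15.9% lower in replicate 2. Of the 8 ligands, 1 differed, Ccl22, which was higher in replicate 2. Its counts scaled to a common depth were 116360 and 126473, a log2 ratio of 0.12 (SE 0.0059, edgeR-scaled exact binomial test, adjusted p = 2.7e-91), or 1.087-fold. This test holds counting error only, so at such depth it finds very small differences. Of the 363 genes whose scaled counts averaged 10000 or more, a limit set after the values were seen, 83.2% differed, and 53.2% had a larger log2 ratio in size than Ccl22. With edgeR's negative binomial exact test, which uses the 19.8% coefficient of variation between the libraries, Ccl22 did not pass (adjusted p = 1). That variation was estimated over all genes from these same 2 libraries, so it already holds the differences under test. A gene that does not pass this test, here or below, is therefore not shown to be equal between the libraries. In the exact binomial test 7 of 8 B cell markers were also higher in replicate 2, with a median log2 ratio of 0.15. So was 1 of 6 macrophage markers with enough counts, Cd68 (log2 ratio 0.48, SE 0.031). With edgeR's negative binomial exact test 0 of these markers differed, against 2.54% of all genes, and 0 had an unadjusted p under 0.05. The mitochondrial share was also higher in replicate 2. The part of these markers and of this share in the difference of Ccl22 was not tested.

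While 30.6% of all genes differed in the exact binomial test and 2.54% in the negative binomial test, the other 7 ligands passed neither. Their log2 ratios of replicate 2 over replicate 1 were 0.18 for Ccl3 (SE 0.161) and 0.05 for Ccl4 (SE 0.143). They were -0.07 for Cxcl10 (SE 0.244), -0.06 for Cxcl16 (SE 0.456) and -0.30 for Cx3cl1 (SE 0.169). Ccl5 and Ccl17, the ligands with the fewest counts, had -0.53 (SE 0.621) and -0.998 (SE 0.616). The smallest adjusted p of these 7 in the exact binomial test was 0.207, for Cx3cl1. The median over the 8 ligands was -0.07, against 0.00 over all genes tested. At 8 to 20 counts in a library, changes well beyond 1 SE could go undetected for Ccl17, Ccl5 and Cxcl16. The log2 ratio of -0.998 for Ccl17 did not pass even before adjustment (exact binomial test, unadjusted p = 0.099).

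**Figure D4:**
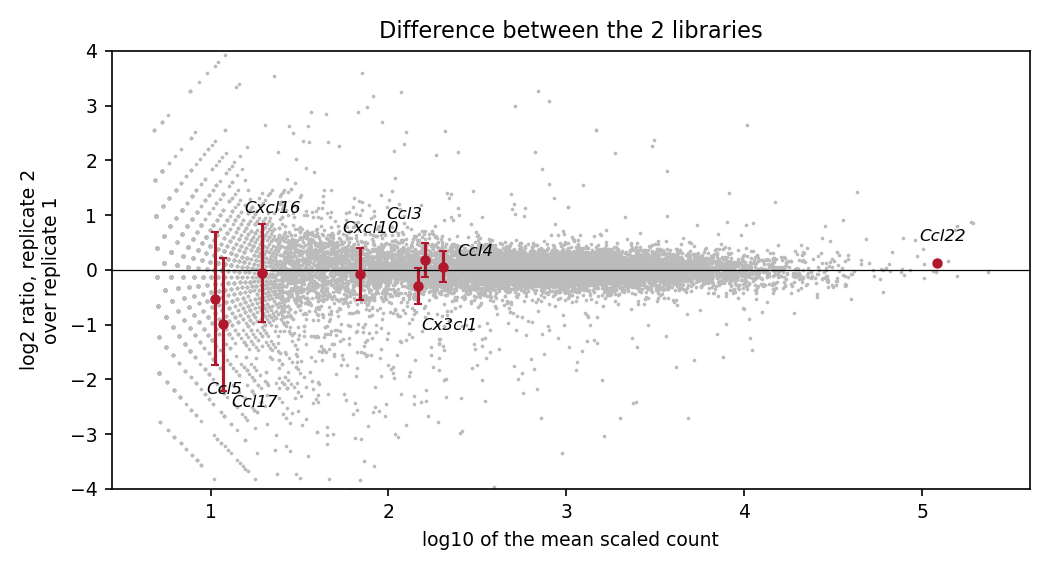
Log2 ratio of replicate 2 over replicate 1 against the log10 mean scaled count for 15340 genes (grey; 198 lie outside the axis of 4 in either direction), with the 8 ligands in red and bars of the 95% counting interval. Ccl22 sits at the far right at 0.12, and the bars of the other 7 cross 0.

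Against the whole family, Ccl22 held nearly all of the ligand level. Over 38 listed chemokine ligands it took 96.5% of the summed TPM in replicate 1 and 96.4% in replicate 2 (mean 96.5% ± 0.021, SD, n = 2). Of the 30 other ligands, 3 were detected, against 48.0% of all protein-coding genes. Ccl1, a ligand of Ccr8 that draws T cells, was the second highest ligand of all, at 63.4 and 70.2 TPM from 501 and 616 counts (mean 66.8 ± 4.81, SD, n = 2). Ccl22 exceeded Ccl1 by 49.1-fold (95% counting interval 45.0 to 53.7) in replicate 1 and 47.7-fold (44.0 to 51.7) in replicate 2. Ccl1 alone took 55.8% and 57.1% of the TPM left when Ccl22 was set aside.

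Ccl25, a thymic and gut chemokine, stood at 3.83 and 4.03 TPM, and Ccl27a, a skin chemokine, at 2.08 and 4.69 TPM. Both overlap exons of a gene on the opposite strand, Elavl1 and Il11ra1, and the part of these overlaps in their values was not tested. The posterior standard deviation was 0% of the count for Ccl25 in both libraries. For Ccl27a it was 11.5% and 7.55%, so the values of Ccl27a are uncertain. Ccl27a was higher in replicate 2 in the exact binomial test (log2 ratio 1.37, SE 0.401, adjusted p = 0.0017) and not in the negative binomial test (adjusted p = 0.422). Of the remaining 27 ligands, 14 had 0 counts in both libraries and 13 had counts but did not reach 1 TPM in both. Those at 0 included Cxcl12, the stromal ligand of Cxcr4, for which 3 counts over both libraries would allow 0.0259 TPM, and Cxcl11, a Cxcr3 ligand like Cxcl10 that the annotation gives as a polymorphic pseudogene in the mouse, for which they would allow 0.0328. By family, 6 of 21 CC ligands were detected, Ccl25 and Ccl27a among them, and 1 of 15 CXC ligands, Cxcl10. Of all protein-coding genes, 48.0% were.

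**Figure D5:**
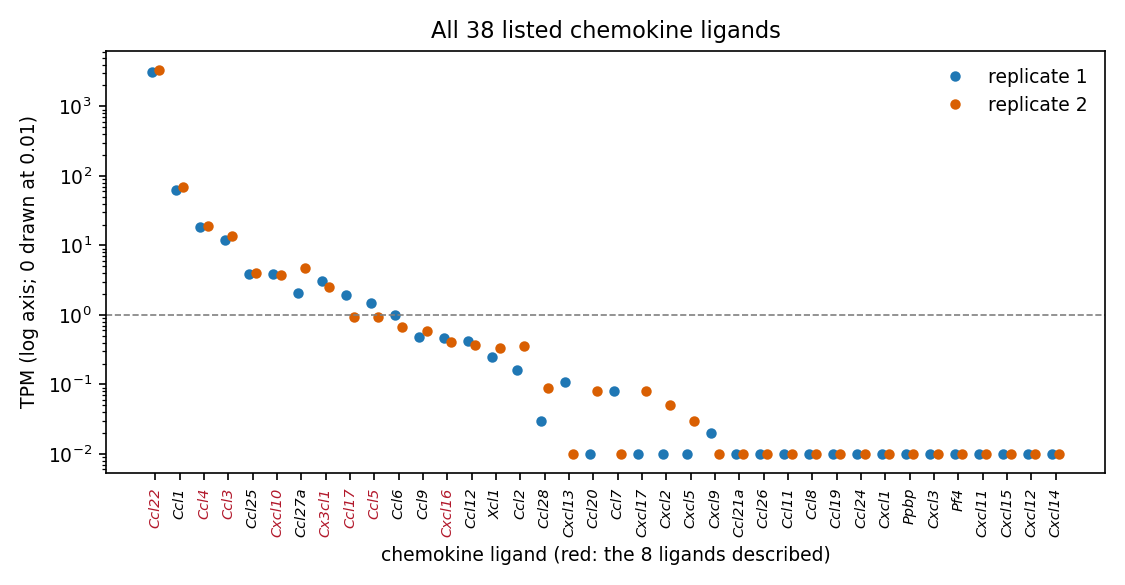
TPM (log axis, 0 drawn at 0.01) of all 38 listed chemokine ligands in both libraries, ordered by mean; red names are the 8 ligands described and the dashed line marks 1 TPM. After Ccl22 come Ccl1 at 63.4 and 70.2 TPM, Ccl4 and Ccl3, and 14 ligands at the right have 0 counts in both libraries.

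Of 6 signalling receptors of the ligands analysed here, 0 reached 1 TPM in both libraries. Ccr1, a receptor of Ccl3 and Ccl5, stood at 0.94 and 1.16 TPM. Ccr4, the receptor of Ccl22 and Ccl17, stood at 0.49 and 0.38 TPM from 22 and 19.1 counts. Cxcr6, the receptor of Cxcl16, stood at 0.63 and 0.77, Cxcr3 at 0.07 and 0.06, Cx3cr1, the receptor of Cx3cl1, at 0.07 and 0.04, and Ccr3 at 0.02 and 0. Of the 3 receptors with enough counts for the exact binomial test, 0 differed between the libraries after adjustment. In edgeR's negative binomial exact test 0 differed as well, and 0 in either test had an unadjusted p under 0.05. Over all genes tested, 30.6% differed in the exact binomial test and 2.54% in the negative binomial test. These 3 receptors had few counts, so only large differences could pass.

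Of 5 atypical or scavenging receptors, which lack classical signalling, 3 stood above each of the 6 signalling receptors given above. Ackr3, which takes up Cxcl12 and Cxcl11, stood at 19.8 and 25.3 TPM, and Ackr2, which scavenges inflammatory CC chemokines including Ccl22, Ccl17, Ccl3, Ccl4 and Ccl5, at 7.90 and 9.06. The chemerin-binding Ccrl2 stood at 2.86 and 2.92, Ackr4 at 0.31 and 0.22, and Ackr1 had 0 counts in both libraries. Thus 3 of 5 were detected, and Ackr3 alone differed between the libraries (log2 ratio 0.36, SE 0.061, exact binomial test, adjusted p = 5.3e-08; negative binomial exact test, adjusted p = 1). Of 3 proteases, Adam10 and Adam17, which shed Cxcl16 and Cx3cl1 from the membrane, stood at 20.4 and 21.3 TPM and at 29.9 and 31.2 TPM. Dpp4, which trims the amino terminus of Ccl22, Ccl5 and Cxcl10, stood at 0.48 and 0.21. Of these 3 proteases, 0 differed between the libraries in the exact binomial test or in edgeR's negative binomial exact test, and 0 had an unadjusted p under 0.05 in either. Over all genes tested, 30.6% differed in the first test and 2.54% in the second.

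All 12 regulators of chemokine genes analysed here were detected, against 48.0% of all protein-coding genes. The NF-kB subunits were led by Nfkb1 at 208 and 247 TPM, followed by Nfkb2 at 52.4 and 52.3, Relb at 37.4 and 41.3, Rela at 29.4 and 34.0 and Rel at 28.9 and 33.2. Irf4, a lymphoid interferon regulatory factor, stood at 56.3 and 60.4, and Spi1, the Ets factor known as PU.1, at 27.2 and 33.0. Stat6, which acts downstream of interleukin-4, stood at 48.7 and 53.0 TPM, and Irf1 at 14 and 13.1. The receptors Cd40, Ifngr1 and Il4ra stood at 115 and 108, 21.1 and 19.5, and 13.2 and 13.8 TPM.

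Of these 12, 6 were higher in replicate 2 in the exact binomial test, namely Nfkb1, Rela, Rel, Relb, Irf4 and Stat6, 0 were lower, and 0 differed in edgeR's negative binomial exact test, with 0 at an unadjusted p under 0.05. Over all genes, 14.6% were higher in the first test. Among the 363 most deeply counted, 83.2% differed in either direction, but of the 12 only Nfkb1 was counted that deeply. The median log2 ratio of the 12 was 0.11, against 0.00 over all genes. The largest of the 6 was that of Rela (0.23, SE 0.054, adjusted p = 0.00013). As given above, 7 of 8 B cell markers were higher in the same library, in the exact binomial test only. The part of these markers in the differences of the regulators was not tested. The AU-rich element binding proteins, which control the stability of short-lived mRNAs, were all 4 detected. Zfp36l1 led at 97.5 and 119 TPM, before Elavl1 at 20.9 and 21.9, Zfp36l2 at 14.3 and 17.8 and Zfp36 at 9.37 and 10.3. Of these, Zfp36l1 and Zfp36l2 were higher in replicate 2 in the exact binomial test, against 14.6% of all genes, and 0 of 4 passed the negative binomial exact test of edgeR, adjusted or unadjusted, against 2.54% of all genes adjusted.

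Dendritic cells and macrophages are other known makers of Ccl22 and Ccl17, and their marker lists held genes with clear counts beside genes at 0. Of 9 dendritic cell markers, 3 were detected, with a summed level of 44.5 and 38.3 TPM over the list. Most of that was Batf3, at 37.2 and 31.3, while Zbtb46 stood at 4.64 and 3.92, Flt3 at 1.54 and 1.67, Itgax at 0.46 and 0.42, and Clec9a and Cd209a had 0 counts in both libraries. Of 10 macrophage markers, 3 were detected, with a summed level of 187 and 257 TPM, of which Cd68 made up 182 and 253. Itgam stood at 1.79 and 1.24 TPM and Adgre1 at 1.64 and 1.34. Csf1r stood at 0.65 and 0.66 TPM, Lyz2 at 0.05 and 0.09, and Cd14 and C1qa had 0 counts in both. Ccl22, at 3112 and 3345 TPM, stood above the whole of both lists in each library, and the part of such cells in its level was not tested.

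Of 9 T and NK cell markers, 2 were detected, with a sum of 4.22 and 5.69 TPM, and Ncr1, Klrb1c and Gzmb had 0 counts. Cd3g, the highest of the list, stood at 1.69 and 2.11 TPM, and the other detected marker, Cd3d, at 1.14 and 1.63, while Cd3e, a chain of the same complex, stood at 0.04 and 0.08. Of 6 stromal and endothelial markers 1 was detected, Cdh5 at 1.1 and 1.0 TPM, with a sum of 1.68 and 1.64. In the exact binomial test between the libraries, 0 of 6 dendritic cell markers with enough counts differed (1 at an unadjusted p under 0.05), as did 0 of 5 T and NK cell markers and 0 of 4 stromal and endothelial markers (0 unadjusted in both). In edgeR's negative binomial exact test the counts were 0 for all 3 lists, adjusted and unadjusted. Over all genes tested, 30.6% differed in the exact binomial test and 2.54% in the negative binomial test. Most of these markers had few counts, where only large differences can pass, so they are not shown to be equal between the libraries. The low ligands Ccl17, Ccl5 and Cxcl16 were in the range of these lists, and the part of other cells in their values was not tested. In RNA from a whole culture, few cells with a high level and many with a low one cannot be told apart.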

How the data were processed

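Polyadenylated RNA of 2 libraries was analysed from tables the authors deposited, made from transcriptome alignments on mm10 with gene annotation M4, per the deposited notes. Aligner, quantification tool and strand setting: not given in the sources used here. Expected counts, as deposited, are estimated reads that need not be whole, and posterior mean counts are a second estimate. The deposited TPM and FPKM values are scaled by the authors to length and depth. The deposited isoform percent is each transcript's share of its gene.

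Names and coordinates came from GENCODE M21 on GRCm38, by Ensembl identifier without version, which matched 42462 of 43346 entries. A further 26248 entries with a bare number held 0.0426% and 0.0539% of the counts, and stayed out with 97 other entries of 0 counts. Totals were 22996547 and 25715408 expected counts, and depth limits the ligands under 20 counts.

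Counts were rounded to whole numbers. Genes with at least 10 counts over both libraries went into an exact binomial test, two-sided, against TMM-scaled library sizes (edgeR 4.0.16), and p-values were adjusted after Benjamini-Hochberg with a threshold of 0.05. Log2 ratios used a pseudocount of 0.5. With 1 group no quasi-likelihood contrast exists. The code was tested on simulated data. Intervals for single libraries are Wilson for shares, exact Poisson for counts and exact binomial for ratios, at 95%. A count of 0 was bounded with 3 counts over both libraries. Motif and sequence work used Python 3.11.15 and Biopython 1.88.

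The members and gene lists were chosen with earlier results of these data known. A few genes of these lists are not reported here. Named by rule were the members, other ligands at 1 TPM, the short lists, cluster neighbours and the 2 protein-coding genes on each side of Ccl22, and of each marker list the highest or detected ones (for B cells the lowest and highest) and those near 0. Of the ligands below 1 TPM, Ccl6, Ccl9, Cxcl9, Cxcl11 and Cxcl12 are named as neighbours or after their values were seen. Alternatives covered DESeq2 1.42.0 size factors, library totals, filters, the error model, the pseudocount, posterior estimates, thresholds and leaving out a library.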

Additional observations from a re-analysis of the deposited data

How the results depend on the processing

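No paired analysis was possible because the 2 libraries form 1 group. Ccl22 averaged 3035 TPM with posterior mean TPM and 3462 TPM when rescaled over named genes outside the mitochondrial genome, against 3228, and its rank among protein-coding genes was 15 to 20 without either replicate. The level of Ccl4 was 17.9 and 20.3 TPM under the same 2 alternatives, that of Cxcl10 4.07 and 4.14, and that of Cxcl16 was 0.55 TPM with posterior mean TPM, at rank 11881. The count of ligands detected, 8 at 1 TPM, was 4 at 5 TPM, 11 at 0.5 TPM, 9 with posterior mean TPM and 8 to 11 without either replicate. The count of receptors detected, 0 of 6 at 1 TPM, was 2 at 0.5 TPM, and 0 to 1 without either replicate, since Ccr1 passed 1 TPM in replicate 2 alone. With the negative binomial exact test of edgeR, 389 genes differed between the libraries in place of 4693, and 0 of the 8 ligands, with 0 at an unadjusted p under 0.05, since that test adds the spread between the libraries to counting error. Of 48 alternative log2 ratios of the ligands, 47 kept their direction and side of the threshold, and the exception was Ccl22 in that test. Those with a pseudocount of 5 could change only the direction, because the pseudocount does not enter the p-value. Depth limits Ccl17, Ccl5 and Cxcl16, with 8 to 20 counts in each library.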

Other observations

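The receptors of the 3 detected ligands outside the 8 were looked up after the values were seen. Ccr8, the receptor of Ccl1, had 0 counts in both libraries, which at 3 counts over both allows up to 0.0777 TPM, beside Ccl1 at 63.4 and 70.2 TPM. Ccr9, the receptor of Ccl25, had 0 and 2 counts. Ccr10, the receptor of Ccl27a, stood at 9.49 and 9.02 TPM from 262 and 277 counts, above each of the 6 receptors given for the ligands described. Ccl1-202 took 91.2% and 91.8% of the Ccl1 level in replicates 1 and 2, and Ccl1-201 took 8.75% and 8.15%.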
